A study of Mus musculus with 143 samples.

Results

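The genes described here are those of the mouse histone clusters, whose names begin with Hist1h, Hist2h, Hist3h or Hist4h. The deposited table held 70 such rows among 54232 gene rows, and 36 of them reached an FPKM (fragments scaled to transcript length and to the mapped fragments of the library) of 1 or more in at least 5 of the 143 libraries. These 36 are the members. They comprised 2 of 6 H1 rows, 10 of 20 H2A rows, 8 of 19 H2B rows, 10 of 12 H3 rows and 6 of 13 H4 rows. The same level was reached by 16664 of all gene rows. Hist1h2ab and Hist1h4k entered with 5 libraries each, while Hist1h2ak, Hist1h2an and Hist1h2bl stayed outside with 4.

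The libraries came from subcutaneous tumours of 11 mouse cancer cell lines implanted in mice, called models here. Each model had 3 untreated baseline tumours, whose day of excision the labels do not give, 5 tumours from mice injected with a muIgG1 isotype control antibody and 5 from mice injected with muDX400, an antibody against the immune checkpoint receptor PD-1. Injections were given on days 11 and 15 after implantation and the tumours were taken on day 19, which the labels call 8 days. The labels class CM3, MBT2 and MC38 as high responders to PD-1 blockade, CT26, EMT6, MB49 and RENCA as partial responders, and 4T1, B16F10, LL2 and TC1 as resistant. Each model is 1 cell line in a bulk tumour that also holds host cells, and in such samples fewer cells of a type and less RNA per cell cannot be told apart. Nothing in the labels says that each library is a separate mouse, so p-values measure only the spread between these libraries, which may be technical.

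Histones are the proteins around which DNA is wound: H2A, H2B, H3 and H4 form the nucleosome core and H1 binds the linker DNA. Most cluster genes are transcribed in S phase, and their mRNAs are the class of animal mRNA that ends in a conserved stem-loop, bound by the protein Slbp, in place of a poly(A) tail. Some cluster genes can also yield mRNA with a poly(A) tail, made from a downstream polyadenylation signal, and such transcripts are known from resting or differentiated cells. Of the genes listed as such, Hist1h1c, Hist1h2bc, Hist2h2be and Hist3h2a were members, and Hist4h4 was not. Below they are called the 4 poly(A)-listed members, a name that rests on the list and not on these transcripts, and the remaining 32 the other members.

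The sequences that set this class apart are the stem-loop and the AATAAA polyadenylation signal, so they are shown for the highest member of classes H1, H2A, H3 and H4 and for the H2B gene Hist2h2be. They come from the GENCODE M21 transcripts (GRCm38). Capitals mark the 16 bases of the stem-loop, with 5 bases on each side.
Hist1h1c stem-loop: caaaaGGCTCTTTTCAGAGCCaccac
Hist3h2a stem-loop: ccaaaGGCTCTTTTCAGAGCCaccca
Hist1h3c stem-loop: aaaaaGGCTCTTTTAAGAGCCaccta
Hist1h4i stem-loop: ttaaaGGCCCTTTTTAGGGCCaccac
In the next 3 lines capitals mark the AATAAA, with 10 bases on each side.
Hist1h1c signal: gtatgcttctAATAAAaagcgtttag
Hist3h2a signal: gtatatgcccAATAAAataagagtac
Hist2h2be signal: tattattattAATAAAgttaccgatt
In Hist1h1c and Hist3h2a the annotated transcript ran on for 840 and 1643 bases past the stem-loop, with the signal near its end. In Hist1h3c only 74 bases followed the stem-loop and no AATAAA stood in the last 50. For Hist2h2be and Hist1h2bc the annotated transcripts held no stem-loop match, and that of Hist1h2bc also had no AATAAA in the last 50 bases. A stem-loop match was found in 46 of the 70 rows, and 46 of the 51 protein-coding genes with a match among 21901 were histone cluster genes. The form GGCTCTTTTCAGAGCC occurred in 26 rows, none of class H4, and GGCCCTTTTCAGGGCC in 7 rows, all of class H4. AATAAA in the last 50 bases was found in 15 of the 70 rows, against 40.5% of all protein-coding transcripts. The 15 are rows with any such transcript, while the 40.5% is a share of transcripts. Both row counts also depend on where the annotated transcript ends: that of Hist1h2bl has 381 bases and holds neither feature.

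Levels of the histone rows were low against the label of ribosome-depleted total RNA. Only 11 of the 70 rows had a mean of FPKM 1 or more over the 143 libraries. The median of the row means was 0.278 over all 70 rows and 0.664 over the 36 members. The 35 genes of a list of S phase and mitosis genes with poly(A) tails all had means above 1, with a median of 43.4. Histone variant genes outside the clusters had a median of 73.2 over 11 genes, from 1.97 for H2afy2 to 439 for H3f3b, which encodes H3.3. Of 14 rows for other short RNAs without poly(A) tails, only Rn7sk, the RNA of the 7SK particle, had a mean above 1, at 2.03, and the median was 0.088. In 36 of the 70 rows at least 50% of the 50-base words were found in no other gene, and the median of their means was 0.213. In the remaining 34 rows it was 0.349. Rows with 100% of such words included Hist1h1a, with a mean of 0.130, and Hist2h2be, with 3.75. The part of library preparation or gene counting in these levels was not tested.

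**Figure D1:**
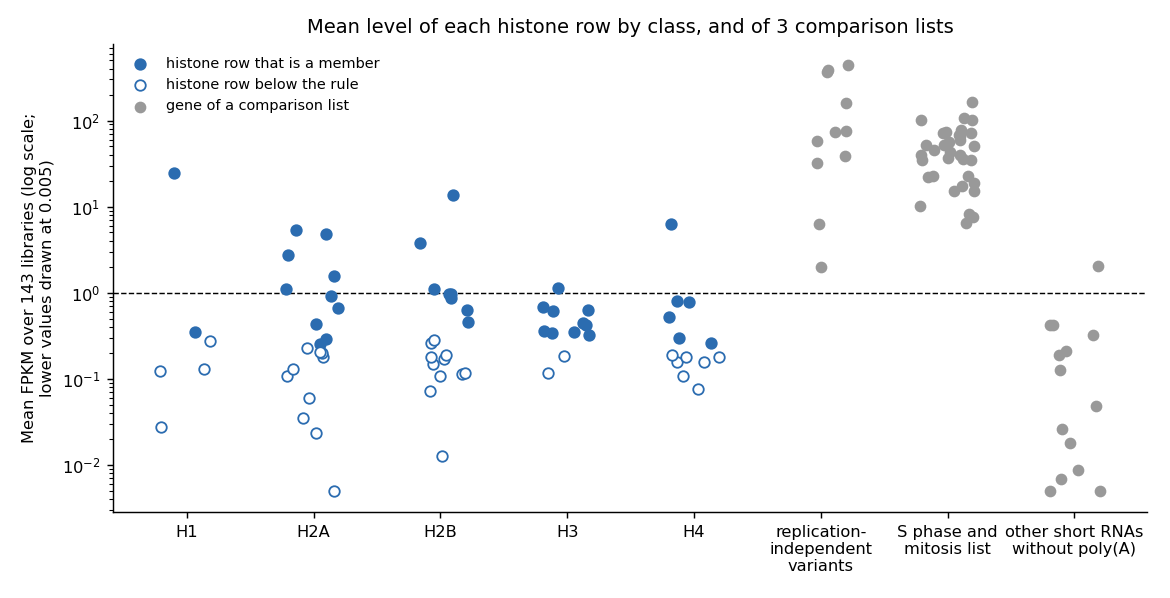
Mean FPKM over 143 libraries (log scale) of each histone row by class and of the genes of 3 comparison lists; filled blue points are members, open points are rows below the rule, and the dashed line is FPKM 1. Of 70 histone rows, 11 lie at or above the line, while all 35 S phase and mitosis genes and all 11 variant genes do.

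The linker histone gene Hist1h1c (chr13:23738808-23740367, GRCm38), which encodes H1.2, was the highest member with a mean FPKM of 24.8 and a range from 6.53 to 139.6. It was followed by Hist1h2bc at 13.6, Hist1h4i at 6.25, Hist3h2a at 5.30, Hist2h2aa1 at 4.80 and Hist2h2be at 3.75. Hist1h3c, at 1.13, was the highest H3 member. Only Hist1h1c, Hist1h2bc, Hist1h4i and Hist3h2a stood at FPKM 1 or more in all 143 libraries. The other H1 member, Hist1h1b, which encodes H1.5, had a mean of 0.350 and its highest isotype mean, 1.33, in TC1. Of the 11 rows with a mean of 1 or more, 5 had AATAAA in the last 50 bases, and 4 were the poly(A)-listed members. Depth, estimated from the steps in the FPKM values, was 11.4 to 49.5 M fragments, and FPKM 1 on a transcript of 500 bases stood for 10.3 fragments in the median library. Most members were thus measured from few fragments.

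The summed FPKM of the members ranged from 32.7 to 268 per library, with a median of 70.5, or 0.0137% of all FPKM in the median library. The poly(A)-listed and the other members ordered the models differently. In isotype tumours the sum of the poly(A)-listed members was highest in LL2, a Lewis lung carcinoma line, at 136 ± 42.9 (SD, n = 5) and next in TC1 at 88.5 ± 6.59. These 2 ranges did not overlap each other or that of any other model. MB49 followed at 48.1 ± 1.53, above RENCA at 40.1 without overlap but within reach of the highest CM3 and 4T1 tumours. From RENCA down to MBT2 at 20.4, each model overlapped its neighbour. For the other members MBT2, a bladder carcinoma line, was highest at 61.9 ± 5.84 and overlapped LL2 at 49.6 ± 8.04. CT26 at 15.1 ± 1.59 and EMT6 at 15.3 ± 1.89 were lowest. MBT2 was thus lowest of 11 models for the poly(A)-listed members and highest for the others.

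**Figure D2:**
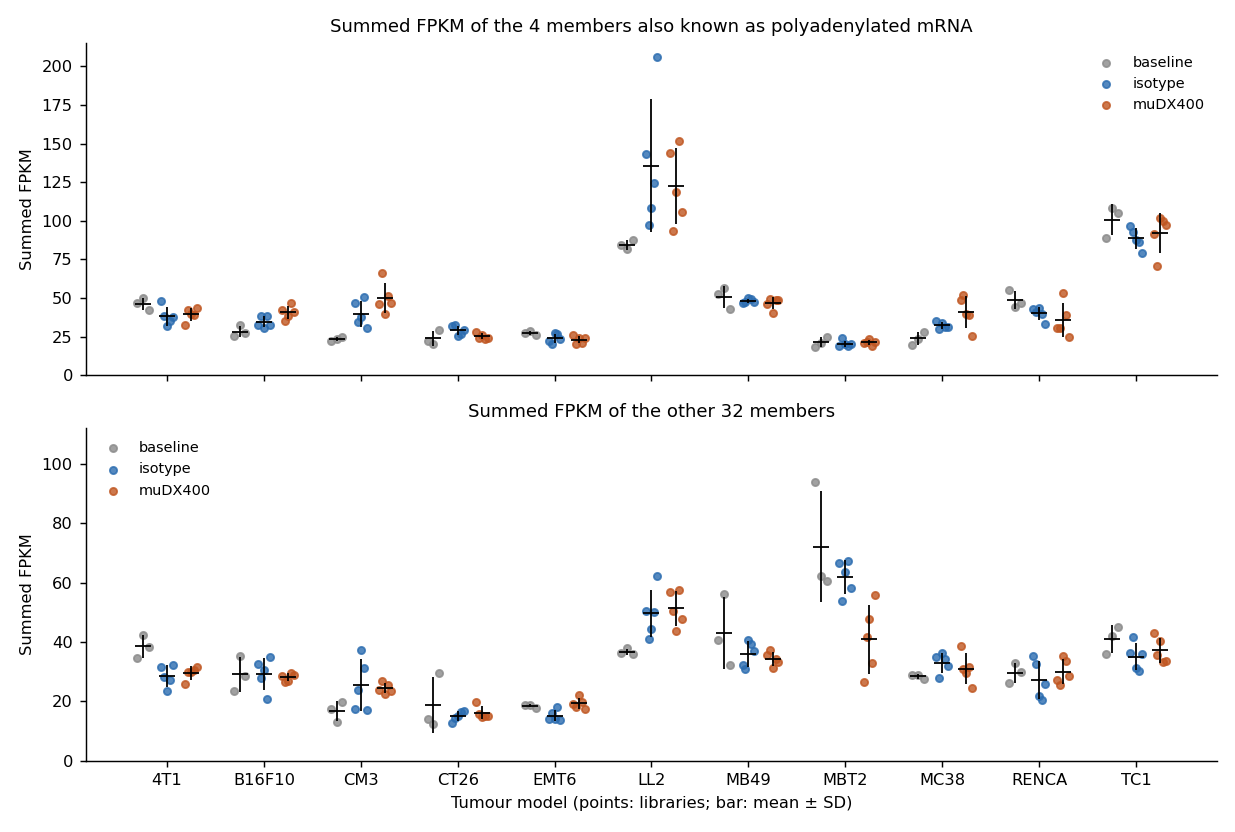
Summed FPKM of the 4 poly(A)-listed members (top) and of the other 32 members (bottom) in each library, by model and arm, with mean ± SD. LL2 and TC1 stand above every other model in the top panel, and MBT2 has the highest isotype mean in the bottom panel, 61.9, with muDX400 tumours at 40.9.

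By model the highest isotype mean fell in MBT2 for 17 of the 32 other members and in LL2 for 9, while all 4 poly(A)-listed members were highest in LL2. Libraries of 1 model alone could make a row a member, so these counts depend in part on the rule. The same shares over all genes were not computed. Hist1h1c stood at FPKM 77.7, 51.8, 58.2, 68.2 and 139.6 in the 5 LL2 isotype tumours and at 49.5, 55.7, 46.0, 48.0 and 41.1 in those of TC1. The LL2 and TC1 values overlap, and replicate 5 of LL2 is far above the other 4. In MBT2 isotype tumours Hist1h1c was 11.2, 13.7, 11.7, 11.5 and 11.7. The core histone gene Hist1h3c showed the opposite placing, with 6.29, 5.36, 6.66, 4.6 and 5.20 in MBT2 against 1.11, 1.48, 0.633, 0.177 and 0.251 in LL2. Class H3 as a whole summed to 18.7 ± 2.79 in MBT2 isotype tumours and 7.87 ± 1.18 in LL2, while class H1 summed to 12.5 ± 1.07 and 79.5 ± 35.3. Class H4 was highest in MC38 at 18.2 ± 2.12, where Hist1h4i alone had a mean of 14.8.

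Most of the variance of a member in isotype tumours lay between models. The median share was 77.7% over the 36 members, against 81.9% over all 16664 genes, and 92.1% over the 4 poly(A)-listed members. The highest shares were those of Hist3h2a at 95.4%, Hist2h2be at 92.3% and Hist1h2bc at 91.8%. The lowest were those of Hist2h2aa2 at 23.4%, Hist1h2br at 30.3% and Hist2h2aa1 at 32.7%. Of the 50-base words of these 3, 0%, 11.3% and 10.6% were found in no other gene. Hist1h2ap, with 6.93% unique words, had a share of 90.3%, and Hist1h4n, with 14.4%, had one of 83.0%. The part of shared sequence in these shares was not tested.

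Along chromosome 13 the rows fall into stretches separated by more than 150 kb. The first stretch (chr13:21715763-21837530, GRCm38) holds 19 rows, 10 of them members, from Hist1h2bl to Hist1h2br. In B16F10, a melanoma line, its summed FPKM was 0.0509 to 1.77 over 13 libraries, with a median of 0.471. The medians of the other models were 3.51 in CM3 and 4.64 to 19.3 elsewhere, and the lowest library outside B16F10 and CM3 stood at 2.57. In B16F10 Hist1h2aj, Hist1h4j, Hist1h4k and Hist1h4n were listed at 0 in all 13 libraries. Hist1h1b, all of whose 50-base words are unique, was listed at 0 in 11 of the 13. The next stretch (chr13:22035164-22043676), with Hist1h4i, had a median of 9.98 in B16F10, within the 2.42 to 14.6 of the other models. The stretch at chr13:23531050-23764406, with Hist1h1c, had a B16F10 median of 40.4, against 25.2 to 110.4 elsewhere. The low B16F10 values thus lay in neighbouring rows and did not extend to these 2 stretches. In CM3 the same first stretch summed to a median of 0.646 without Hist1h2bq and Hist1h2br, which had CM3 medians of 1.12 and 0.495. Without these 2 rows the models other than B16F10 and CM3 had medians from 2.13 in CT26 to 16.5 in MBT2. The CM3 libraries then ran from 0.0688 to 3.04 and overlapped those of CT26, the lowest of which stood at 0.92. The stretch was picked out after its values were seen, so no test is given, and the cause was not tested.

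**Figure D3:**
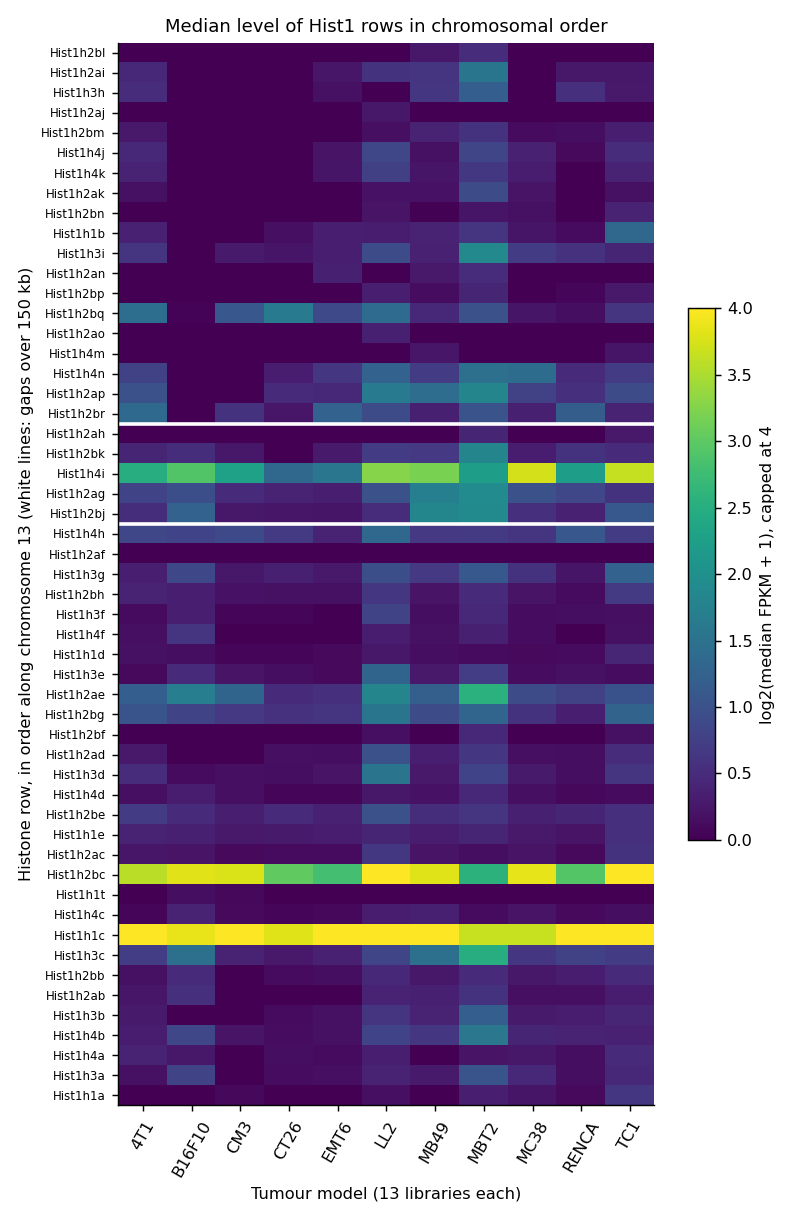
Colour shows log2(median FPKM + 1) over 13 libraries per model, capped at 4, for Hist1 rows in chromosomal order; white lines mark gaps of more than 150 kb. The top 19 rows are near 0 in B16F10, whose summed level there has a median of 0.471, and most are near 0 in CM3.

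Hist1h2al, an annotated pseudogene of class H2A on chromosome 13 at 51202727 to 51203065, was present in some models and nearly absent in others. It was above 0 in all 13 libraries of each of 4T1, CT26, EMT6, MBT2 and RENCA, with medians of 0.810, 1.11, 1.46, 1.51 and 1.89. It was listed at 0 in all 13 libraries of CM3, LL2, MB49 and TC1 and in 12 of 13 of B16F10 and MC38.

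Across models, levels of the members were only weakly related to those of the S phase and mitosis list. Over the 11 isotype model means the correlation of that list with the log2 sum of the poly(A)-listed members was r = 0.24 (Spearman 0.12) and with the other members r = 0.25 (Spearman 0.38). Without the 2 models farthest from the median of the list these were 0.08 and 0.21. Within groups the relation was negative. After each group's mean was subtracted, r was -0.42 for the poly(A)-listed and -0.32 for the other members over 143 libraries, and it was below 0 in 9 of the 11 models for each. Without the 2 libraries farthest from the median it was -0.31 and -0.26, and with libraries rescaled by median ratios -0.35 and -0.14. All points share a library's total and depth, so these values are descriptions only.

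**Figure D4:**
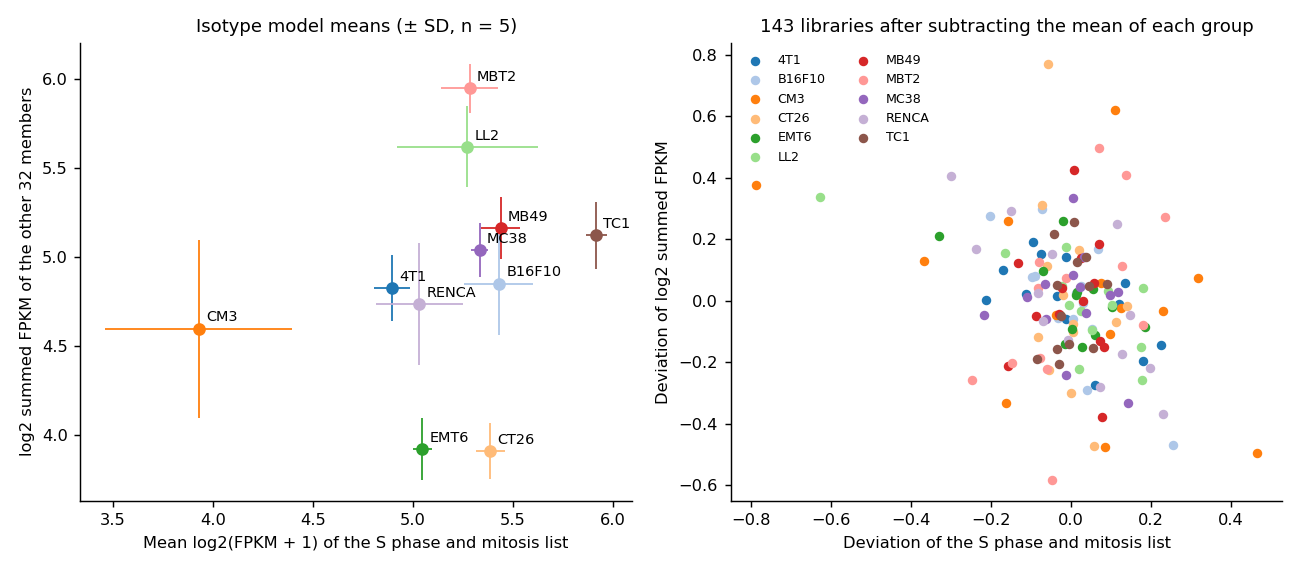
Left, isotype model means (± SD, n = 5) of the S phase and mitosis list, as mean log2(FPKM + 1), against log2 summed FPKM of the other 32 members; right, 143 libraries after subtracting each group's mean from both. The left panel shows r = 0.25 over 11 models, with CM3 far to the left, and the right panel r = -0.32.

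Under muDX400 few members changed. The limma test on log2(FPKM + 1), with Benjamini-Hochberg adjustment over all genes tested in a model, called 1 member higher and 1 lower in MC38 and none in the other 10 models. Between 8 and 23 members passed the filter of FPKM 1 in at least 5 of a model's 10 libraries. In MC38, 2 of 8 members were called, beside a background of 27.3% of 12775 genes (14.6% higher and 12.7% lower). A share of 2 in 8 is near that background. In the other 10 models the background was 0% in 7 (4T1, B16F10, CM3, EMT6, LL2, MB49 and MBT2), 0.0802% in TC1, 0.339% in CT26 (0.289% higher and 0.0496% lower) and 2.57% in RENCA (2.28% higher and 0.284% lower). At an unadjusted p under 0.05 the 0 counts became 11 of 23 members in MBT2 beside 28.7% of all genes, 4 of 11 in RENCA beside 14.4%, 3 of 11 in B16F10 beside 3.07% and 3 of 10 in CM3 beside 26.6%. They became 1 of 19 in LL2 beside 16.6% and 1 of 11 in MB49 beside 10%, and stayed 0 in 4T1, CT26, EMT6 and TC1 beside 4.68%, 19.2%, 4.24% and 6.55%.

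In MC38 Hist3h2a, an H2A gene, stood at FPKM 4.86, 4.13, 5.49, 4.18 and 3.67 in isotype and 7.01, 7.88, 6.80, 6.66 and 4.47 in muDX400 tumours. Of the muDX400 values, 4 lie above every isotype value, and replicate 5 lies within them. The difference was 0.46 ± 0.14 (SE) on the log2(FPKM + 1) scale, with a limma adjusted p of 0.0337. Hist1h4i stood at 16.1, 11.1, 17.4, 13.9 and 15.4 in isotype and 14.4, 8.01, 8.47, 10.8 and 10.1 in muDX400 tumours, and the arms overlap. It fell by 0.49 ± 0.16, with a limma adjusted p of 0.0416. Each call was kept in 2 of 10 fits that left out 1 library. The limma adjusted p then ranged from 0.00353 to 0.0901 for Hist3h2a and from 0.0126 to 0.108 for Hist1h4i, and the counts of called members ran from 0 to 3 over those fits. With no filter on low values both calls were lost, at 0.0693 and 0.0847.

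Other lists moved with these 2 calls. In MC38 the S phase and mitosis list had 18 of 35 genes lower and none higher, among them Tk1, a thymidine kinase, which fell by 0.55. Among the variant genes 6 of 11 were lower, led by H3f3b, which fell by 0.58. Of 9 histone chaperones 4 were lower, and of 16 tested genes for histone mRNA transcription and processing 2 were. T cell markers were higher in 8 of 8 genes, and their mean log2(FPKM + 1) was 1.37 to 2.01 in isotype and 2.78 to 4.61 in muDX400 tumours. Macrophage markers were higher in 7 of 7, with 6.03 to 6.47 against 6.77 to 7.96. Endothelial markers were higher in 5 of 5, with 2.17 to 2.48 against 2.34 to 3.98. None of the T cell and macrophage markers was at 0 in all libraries. The part of the cell mixture in the 2 histone calls was not tested.

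The promoters of these 2 members are shown because the pair was called in opposite directions. The 250 bases before each start come from RefSeq (GRCm38.p6), at chr11:58954435-58954684 on the plus strand for Hist3h2a and chr13:22041363-22041612 on the minus strand for Hist1h4i. Capitals mark CCAAT, ATTTGCAT (the octamer) and TATAAA on either strand, and no match overlapped another.
Hist3h2a: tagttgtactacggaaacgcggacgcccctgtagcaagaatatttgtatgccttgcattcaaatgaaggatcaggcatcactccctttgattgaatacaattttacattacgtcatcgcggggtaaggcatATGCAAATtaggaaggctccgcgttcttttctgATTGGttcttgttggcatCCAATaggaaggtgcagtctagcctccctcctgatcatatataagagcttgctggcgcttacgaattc
Hist1h4i: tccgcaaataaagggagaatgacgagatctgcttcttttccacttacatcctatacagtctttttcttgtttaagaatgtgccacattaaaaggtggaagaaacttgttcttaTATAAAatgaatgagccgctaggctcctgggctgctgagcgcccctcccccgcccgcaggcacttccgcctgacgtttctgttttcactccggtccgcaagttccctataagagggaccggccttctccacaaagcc
Hist3h2a held 2 CCAAT and 1 ATTTGCAT, and Hist1h4i held 1 TATAAA only, which begins 137 bases before the start. Only exact matches were counted, so runs close to TATAAA are not marked. Over 300 bases from 250 before to 50 after the start, CCAAT was found in 52 of 61 matched histone rows, against 37.4% of 32851 promoters. It was in all rows of classes H1, H2A, H2B and H3 and in 3 of 12 of class H4. TATAAA was in 35 of 61 (13.6% of all promoters) and ATTTGCAT in 13 of 61 (1.74%), 7 of them H2A and 6 H2B. A match is a run of letters and does not show a bound factor.

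In MBT2 no member was called at the adjusted threshold, and no other gene was, while 11 members and 3597 of 12541 genes had an unadjusted p under 0.05. The median difference of the 23 members tested was -0.28 against -0.02 for all genes tested, with 19 other members at -0.37 and the 4 poly(A)-listed ones at 0.04. A member could pass the filter through the tumours of 1 arm alone. The set tested, and so these medians, depend in part on the same values. Hist1h3c, an H3 gene, stood at 6.29, 5.36, 6.66, 4.6 and 5.20 in isotype and 2.47, 2.74, 2.11, 1.49 and 3.97 in muDX400 tumours. The arms do not overlap, and the difference was -0.92 ± 0.16 with a limma adjusted p of 0.0510. For Hist1h2ae, an H2A gene, the values were 7.46, 5.22, 5.37, 6.12 and 5.43 against 1.44, 2.92, 4.89, 1.78 and 3.25, again with no overlap, and the difference was -0.91 ± 0.21 with a limma adjusted p of 0.0510. Hist1h3i was the third tested member without overlap, with means of 4.26 ± 1.55 and 1.25 ± 0.960. These are 3 of 23 members, beside 6.29% of all genes tested in MBT2 whose arms did not overlap. Over all 36 members, 28 had a lower mean under muDX400 and 8 a higher one, and the same share over all genes was not computed. The highest isotype mean fell in MBT2 for 17 members. The choice of the 36, and so this count and the sum that follows, thus also depends in part on the same values. The sum of the other members was 61.9 ± 5.84 in isotype and 40.9 ± 11.6 in muDX400 tumours, whose highest library, 55.8, lies just inside the isotype range of 53.7 to 67.4.

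Single libraries decided the MBT2 count. Without muDX400 replicate 3 limma called 8 members, 7 of them lower, and 2595 genes. Without muDX400 replicate 5 it called 6, all lower, and 478 genes, while the other 8 such fits called none. A fit with 1 spread over all 8-day libraries, which also tested all 36 members, called 10 lower, beside 0.372% of 16664 genes lower. The choice of these 36 depends in part on the MBT2 isotype values. The S phase and mitosis list had a median difference of -0.39, with 31 of 35 genes at an unadjusted p under 0.05, and T cell markers one of 0.84, with 7 of 8. Their part in the histone values was not tested.

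The muDX400 effect differed between models for 10 of 36 members in a limma F-test of the interaction, beside 31.9% of all 16664 genes. They were Hist1h2ae (adjusted p of 0.000691), Hist2h2be, Hist1h3i, Hist1h3c, Hist3h2a, Hist1h2ai, Hist1h2bj, Hist1h4b, Hist1h4j and Hist1h4n. The share of 10 in 36 is near the background. Without MBT2, an alternative chosen after seeing the data, 3 members were called, 2 of them among the 10. The share of all genes called in that fit is not given here, so this lower count has no background beside it. Hist2h2be, an H2B gene, had differences from -0.63 in RENCA to 0.52 in CM3. In RENCA it stood at 2.11, 2.92, 2.48, 2.65 and 2.16 in isotype and 0.979, 0.913, 2.79, 1.15 and 0.807 in muDX400 tumours, where replicate 3 lies inside the isotype range and the others below it.

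The comparison of isotype with baseline tumours joins the time since implantation and the antibody injections. In 9 of 11 models the 2 arms also carry separate runs of sample numbers, so run and arm cannot be told apart there. It shares the isotype libraries with the muDX400 comparison. Averaged over the 11 models, limma called 4 members higher and 7 lower, beside 4.1% of 16664 genes higher and 24.9% lower (29% in all). The share of 11 in 36 is near that background. The 4 were Hist2h2aa1 at 0.87 ± 0.15, Hist3h2a at 0.23 ± 0.04, Hist1h2ae at 0.19 ± 0.06 and Hist1h1c at 0.16 ± 0.06, with limma adjusted p of 2.75e-06, 2.28e-06, 0.00579 and 0.0181. The largest falls were those of Hist2h2aa2 by 0.76 ± 0.20 and Hist1h3h by 0.48 ± 0.09, followed by Hist1h3i, Hist1h2al, Hist1h2bk, Hist1h3c and Hist1h4h, which fell by 0.20 to 0.27. The S phase and mitosis list had 12 of 35 genes lower and none higher, the chaperones 6 of 9 lower, and the variant genes 6 of 11 lower and 2 higher. Erythroid markers were higher in 4 of 4 genes. Their part in the histone values was not tested.

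The rise of Hist2h2aa1 and the fall of Hist2h2aa2 concern a pair of near-identical genes. Over the 11 models the mean of Hist2h2aa1 was 2.41 in baseline and 5.12 in isotype tumours, higher in 11 of 11 models. That of Hist2h2aa2 was 3.65 and 2.0, higher in only 2. Their sum was 6.06 and 7.11, higher in 8. In MB49 isotype tumours Hist2h2aa2 had a mean of 0.0174 beside 7.44 for Hist2h2aa1, and in CM3 isotype tumours the means were 4.26 and 4.61 with SDs of 4.87 and 5.11. The sum is the safer value for this pair.

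LL2 had the most calls of the 11 models, with 9 of 36 members higher in isotype than in baseline tumours and none lower, beside 2.16% of genes higher and 5.12% lower (7.28% in all). Hist1h1c stood at 45.5, 43.4 and 46.6 in baseline and at 51.8 or more in every isotype tumour. The difference was 0.70 ± 0.18, with a limma adjusted p of 0.0089. Hist2h2be stood at 7.21, 7.30 and 7.40 in baseline and 18.4, 12.2, 16.1, 13.9 and 9.55 in isotype tumours, a difference of 0.82 ± 0.16 with a limma adjusted p of 0.000319. Hist3h2a rose by 0.48 ± 0.13 and the H4 genes Hist1h4i and Hist1h4j by 0.80 ± 0.20 and 0.75 ± 0.13. The others were the H2A gene Hist1h2ap, the H2B gene Hist1h2bg and the H3 genes Hist1h3b and Hist1h3d. The 2 groups did not overlap in 10 of 36 members, all higher in isotype tumours, beside 33.2% of all genes without overlap (13% higher). Without baseline replicate 2 limma called 5.

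In the same LL2 comparison none of the 35 S phase and mitosis genes was called, and the variant genes H3f3b and H1f0 were higher by 0.46 and 0.47. T cell markers were lower in 8 of 8 genes, with mean log2(FPKM + 1) of 1.82 to 2.15 in baseline and 0.179 to 0.550 in isotype tumours. B and plasma cell markers were lower in 6 of 6, with 2.85 to 3.08 against 0.0855 to 0.189. Erythroid markers, none called, stood at 3.76 to 4.18 against 4.20 to 7.42. Their part in the histone values was not tested.

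CM3 had 6 members higher and none lower, beside 7.41% of genes higher and 17.4% lower (24.8% in all). Hist3h2a stood at 2.21, 3.04 and 2.38 in baseline and 6.49, 5.52, 4.75, 7.30 and 4.14 in isotype tumours, without overlap, and rose by 0.89 ± 0.13 with a limma adjusted p of 2.88e-07. Hist1h1c and Hist1h2bc rose by 0.62 ± 0.18 and 0.70 ± 0.18, and Hist1h4i, Hist2h3c2 and Hist2h2aa1 were the other 3. The S phase and mitosis list had 19 of 35 genes lower and none higher, the opposite direction to the 6 members called. Of those members, 3 (Hist1h1c, Hist1h2bc and Hist3h2a) are poly(A)-listed and 3 are not. CM3 isotype replicate 3 had the highest total FPKM of all libraries, 885333 against a median of 514607, and without it limma called 4 members, with Hist1h4i and Hist2h3c2 lost. The fit on its own 8 libraries called no member and 42 genes in all. Without baseline replicate 3 limma called 3 members.

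In RENCA 1 member was higher and 3 lower, beside 5.19% and 18.3% of genes (23.5% in all). Hist2h2be stood at 8.60, 6.53 and 6.34 in baseline tumours, above all 5 isotype values, and fell by 1.23 ± 0.16 with a limma adjusted p of 8.32e-09. Hist2h3b and Hist1h4h fell by 0.82 ± 0.19 and 0.64 ± 0.19, and Hist3h2a rose by 0.50 ± 0.13. RENCA is one of the 2 models, with B16F10, whose arms share a run of sample numbers. Its 3 baseline libraries are among 9, with those of B16F10 and TC1, that were sequenced to 35.9 to 49.5 M fragments, against 11.4 to 25.4 M fragments in the other 134. The S phase and mitosis list had 14 of 35 genes lower and epithelial markers 4 of 6. The part of depth and of these lists was not tested.

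In MBT2 the H3 gene Hist1h3h fell by 1.5 ± 0.30, from 4.88 ± 0.871 (n = 3) to 1.36 ± 1.37 (n = 5), Hist1h2al and Hist1h4n also fell, and Hist1h2ag rose by 0.79 ± 0.22, beside 2.22% of genes lower and 1.85% higher (4.07% in all). Without isotype replicate 4 limma called 2. In 4T1 Hist1h2al, Hist1h3c, Hist1h4j and Hist1h3d fell by 0.34 to 0.61, beside 7.11% lower and 2.09% higher (9.2% in all). Hist1h2al fell in CT26 and EMT6 too, where Hist1h1c rose by 0.55 ± 0.18 and Hist2h2aa1 by 1.6 ± 0.49 respectively, beside 15.1% (2.62% higher and 12.5% lower) and 4.5% (1.52% higher and 2.98% lower) of genes. In EMT6 the sum of Hist2h2aa1 and Hist2h2aa2 was 4.21 in baseline and 4.47 in isotype tumours. Hist1h4h fell in B16F10 and Hist1h3i in TC1, beside 2.9% lower and 0.486% higher (3.38% in all) and 11.8% lower and 2.08% higher (13.9% in all). In MB49 and MC38 no member was called by limma, beside 1.58% (0.132% higher and 1.45% lower) and 3.63% (1.28% higher and 2.35% lower) of genes. At an unadjusted p under 0.05 these became 6 and 5 of 36 members, beside 7.39% and 13.3% of genes. In 4T1, B16F10, CT26, EMT6 and TC1 leaving out single libraries took the count down to 0 or 1.

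**Figure D5:**
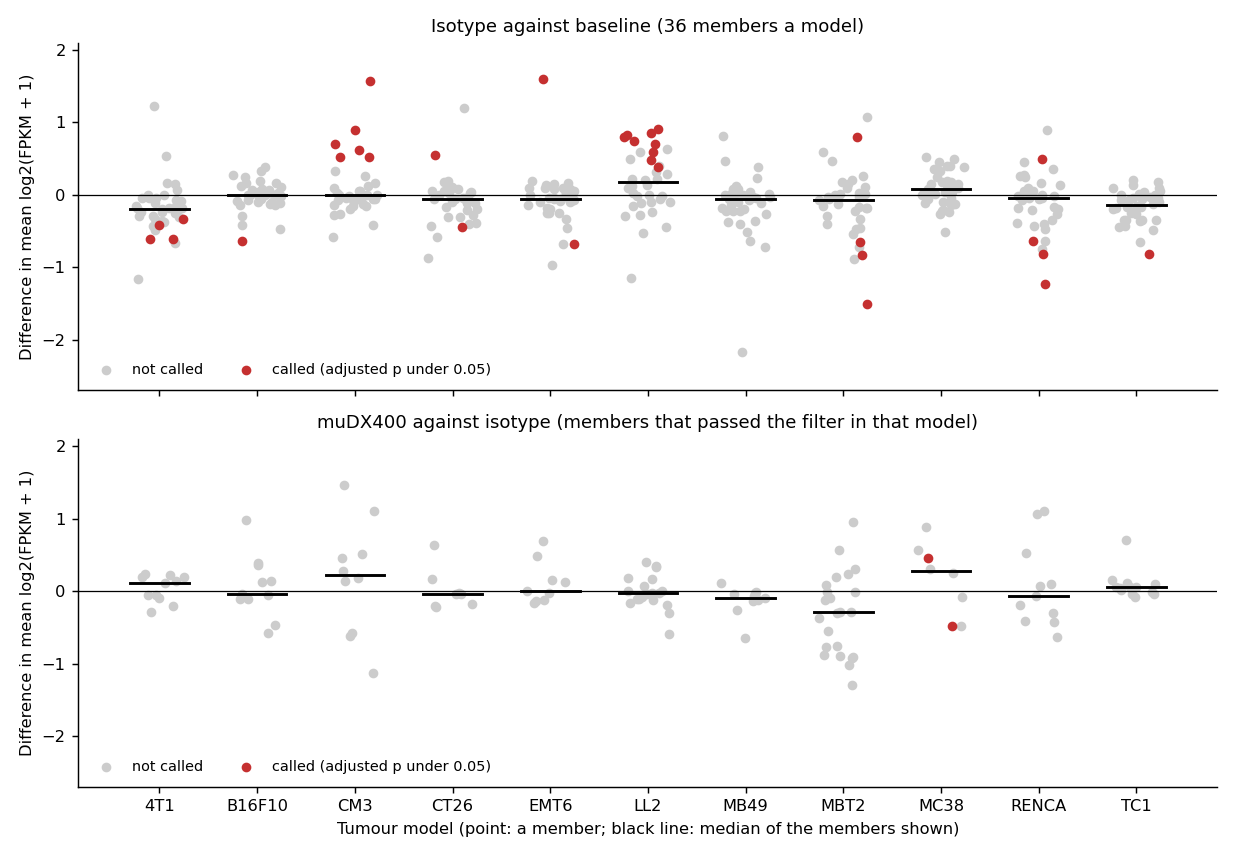
Difference in mean log2(FPKM + 1) of each member by model, isotype minus baseline (top) and muDX400 minus isotype (bottom); red points were called by limma at an adjusted p under 0.05 and black lines are medians of the members shown. In LL2, 9 red points lie above 0 (top), and the bottom panel has 2 red points, both in MC38, while the MBT2 median lies at -0.28.

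Across response classes no trend was called for any member. The slope over isotype model means, with the model as the replicate, was tested for 17 members, and limma called none of them and none of 13589 genes (0%). At an unadjusted p under 0.05 there were 1 member and 640 genes. That member was Hist1h1c, with a slope of -0.59 ± 0.24 per class from resistant to high (limma adjusted p of 0.990). All 4 poly(A)-listed members had slopes below 0, with a median of -0.45, and LL2 and TC1, the 2 models with the highest levels, are both resistant. B16F10 and 4T1 are resistant too, with mean isotype sums of these members of 34.5 and 38.3. These lay below CM3 at 39.8, RENCA at 40.1 and MB49 at 48.1, and above MC38 at 32.2 and MBT2 at 20.4.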

How the data were processed

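RNA from 143 bulk tumours was sequenced as ribosome-depleted, stranded libraries with paired reads of 50 bases, per the labels' protocols. The authors deposited 1 table of FPKM per Ensembl gene, while the aligner, gene counter and annotation were not given in the sources used here. Of its 54232 rows, 54079 matched a symbol. Among 10010 values of histone rows 2774 were 0 and 174 lay above 0 but under 1e-06. The members and lists were chosen with earlier results of these data known. Values were tested as log2(FPKM + 1) with limma 3.58.1 in R 4.3.3 (moderated tests with an intensity trend, 2-sided, Benjamini-Hochberg adjustment over all genes tested, threshold 0.05). Genes needed FPKM 1 or more in at least 5 libraries, of a model's 10 for muDX400 and of all 143 for isotype against baseline and the interaction, or in at least 3 model means for the trend. Each muDX400 comparison used a model's 10 libraries, isotype against baseline used 88 libraries, and the trend used 11 isotype model means. A fold on this scale understates changes of low genes. Scripts were tested on simulated data. Named genes were the highest member of each class, all H1 members, called members (at most 4 each way, all where 5 or fewer), extremes of the variance share and called genes of other lists. Other members named were chosen after their values were seen. Alternatives were another pseudocount, scalings, filters, spreads, a replicate block and each library left out. Sequence features came from GENCODE M21 and RefSeq (GRCm38), with Python 3.11.15 and pandas 2.3.3.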

Additional observations from a re-analysis of the deposited data

Results flagged for a closer look

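In all, 2 libraries stood apart from the rest of their group in a summed histone level, by the gap to the nearest library as a share of the group's range (0.782 and 0.789). In MBT2 isotype replicate 2 the poly(A)-listed members summed to FPKM 23.8, against 19.0 to 20.0 in the other 4. In CT26 muDX400 replicate 1 the other members summed to 19.9, against 14.8 to 15.9. Altogether 44 sets of values were examined, both sums in each group of 5 libraries, and chance flags about 1 in 20.

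The effect of muDX400 differed between the 11 models for 10 of 36 members by the limma F-test of the interaction, beside 31.9% of all 16664 genes. The members' share is near that background. The adjusted p of the F-test was 0.000691 for Hist1h2ae, 0.00282 for Hist2h2be, 0.0052 for Hist1h3i, 0.00821 for Hist1h3c and 0.0224 for Hist3h2a. For Hist1h2ai, Hist1h2bj, Hist1h4b, Hist1h4j and Hist1h4n it was 0.0251, 0.0259, 0.0281, 0.0293 and 0.0442.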

How the results depend on the processing

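Over 505 alternative values of counts, sums and correlations, 415 kept a count within 1.5 times the reported one, a sum within 1 SD, a correlation within 0.2 or a share of variance within 10 percentage points. For named members, 567 alternative values came from fits that left out no library. Of these, 487 kept their status, called or not called, 76 lost a call and 4 gained one. The named members counted here include uncalled ones under muDX400, which had no call to lose. No called member reversed direction in these or in 1702 values from fits that left out 1 library. Reversal was recorded only for members called in the main fit. The cause of the changes below was not tested. For alternative fits, here and in the sections above, the number or share of all genes called is given only where stated. Under muDX400, 1 spread over all 8-day libraries and all 36 members tested called 6 in CM3, 10 in MBT2, 4 in MC38 and 3 in RENCA, beside 40.5%, 1.48%, 27% and 16% of all genes. A minimum FPKM of 5 called 1 in MBT2, and no filter called 1 in MC38. For isotype against baseline, a pseudocount of 0.1 called 0 in B16F10 and 1 in MBT2. Median-ratio scaling called 2 in 4T1, 1 in CT26, 1 in EMT6 and 0 in TC1. Rescaling every library to the same total FPKM called 2 in 4T1 (1 higher and 1 lower), 0 in B16F10, 1 in CT26 and 1 in MC38. No filter called 0 in B16F10, 1 in EMT6 and 0 in TC1. A model's own 8 libraries called 1 in 4T1, 0 in B16F10, CM3, CT26 and EMT6, 1 in MB49 and MC38, and 3 in TC1. Rescaling also moved the 4T1 split over all genes from 349 higher and 1184 lower to 614 and 666, and the median of all genes there from -0.01 to 0.12.

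With the replicate number as a block, isotype against baseline called 2 members in 4T1, 0 in B16F10, 1 in CT26, 1 in EMT6, 4 in LL2 and 0 in TC1, and other counts stayed within 1.5 times. No model had all 5 same-number pairs correlated over 0.1 (r from -0.674 to 0.641). The most was 3 of 5, in CM3, LL2 and MC38, while 4T1 and EMT6 had 0. Whether same-number samples were handled together was not tested.

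The interaction called 3 members with a pseudocount of 0.1, 3 without MBT2 and 4 to 11 without one replicate number. The summed level against the mean of models (log2) moved to 0.12 in B16F10 and 0.028 in MBT2 under median-ratio scaling, and to -0.82 in CT26, 0.26 in MBT2 and 0.93 in TC1 when rescaled to the same total FPKM. For the other members in baseline tumours, the correlation with the S phase list went from 0.46 to -0.32 without 2 models.

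Leaving out 1 library gave, for isotype against baseline, 1 to 4 members in 4T1, 0 to 1 in B16F10, MB49 and MC38, 3 to 6 in CM3, 0 to 3 in CT26, 1 to 2 in EMT6, 5 to 9 in LL2, 2 to 4 in MBT2, 3 to 5 in RENCA, 0 to 2 in TC1 and 11 to 12 for the mean. Under muDX400 it gave 0 to 3 in CM3 and MC38, 0 to 8 in MBT2 and 0 to 2 in RENCA, and 0 in the other 7 models. The high CM3 count came without isotype replicate 4 and that of RENCA without muDX400 replicate 3. Depth limits these results: FPKM 0.1 on 500 bases stood for 1.03 fragments in the median library.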
